A study of Homo sapiens with 6 samples.

Results

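The heterogeneous nuclear ribonucleoproteins (hnRNPs) and the serine/arginine-rich (SR) proteins are the main families of RNA-binding proteins that decide which exons a transcript keeps. The cells studied are labelled HBMEC, short for human brain microvascular endothelial cells. 35 hnRNP and SR genes, of 17104 genes in the count table, are described here after oxygen-glucose deprivation followed by reperfusion (OGD/R). They comprise 22 hnRNP genes, with PTBP1 and SYNCRIP counted among them, and 13 genes of SR proteins and their relatives TRA2A and TRA2B. Every one of the 35 had a row in the table and none was removed by a filter on low counts. The members were chosen by gene family, with the OGD/R-over-control fold changes of these same 6 libraries already known, and no threshold on a value was applied. Their own fold changes and counts are therefore given as a description, without a p-value.

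The study sequenced RNA from 3 OGD/R libraries and 3 control libraries of the cell line labelled HBMEC. That name stands for endothelial cells from the small vessels of the human brain. OGD/R removes oxygen and glucose from cultured cells and then restores them, and serves as a culture model of ischaemic stroke. The labels name the control libraries by number only, give neither the length of deprivation nor that of reperfusion, and leave unsaid whether replicate libraries were grown independently. The spread between libraries may thus be technical. No gene was deleted or introduced in either group, as far as the labels say.

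As background, hnRNPs bind nascent transcripts and often block the use of nearby splice sites, whereas SR proteins bind exonic enhancers through RNA recognition motifs and recruit the spliceosome through arginine- and serine-rich tails. The balance between these families sets the inclusion of many alternative exons. Many of these genes also limit their own output: the protein promotes splicing of its transcript into a form with a premature stop codon, which nonsense-mediated decay then removes. Kinases of the CLK and SRPK families phosphorylate SR proteins and control their location and activity.

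Total counts ran from 31048662 to 34484647 per library, and the mitochondrially encoded genes took 4.94% to 5.33% of them. Across all 17104 genes, 3370 (19.7%) passed the test between OGD/R and control libraries (edgeR's quasi-likelihood test, Benjamini-Hochberg adjusted p under 0.05), of which 1749 (10.2%) were higher and 1621 (9.48%) lower after OGD/R. Scaled by total counts alone, the split was 1383 higher and 2098 lower, and without control replicate 3 the lower calls numbered 1079. The OGD/R libraries all lay above the control libraries in 16.4% of genes and all below them in 16.6%. Of 12 endothelial markers listed, 3 (CDH5, ESAM and ROBO4) had a row. The others, PECAM1, VWF and KDR among them, had no value here. The endothelial name of the cells thus comes from the labels, and few measured genes bear on it. Summed levels of the measured endothelial markers were 151 to 157 CPM (counts scaled to library size and by the trimmed mean of M-values, TMM) in OGD/R libraries and 150 to 160 CPM in control libraries. ESAM made up most of that sum and did not pass (−0.06 ± 0.05 on the log2 scale). CDH5 was higher (0.81 ± 0.11) and ROBO4 lower (−0.75 ± 0.17) after OGD/R, both at low levels. In control libraries ESAM averaged 138 CPM, CDH5 10.3 CPM and ROBO4 6.36 CPM. The 8 measured of 12 epithelial markers summed to 3009 to 3069 CPM in OGD/R libraries, against 2457 to 2683 CPM in control libraries. KRT8 (0.33 ± 0.04), KRT18 (0.18 ± 0.04) and KRT7 (0.17 ± 0.04) passed as higher and carried this sum. The other 5 did not pass, and 4 of the 8 had negative fold changes (median −0.02). KRT8 averaged 1235 CPM, KRT18 848 CPM and KRT7 356 CPM in control libraries, each above every measured endothelial marker. The 3 measured of 6 pericyte markers summed to 6.14 to 7.63 CPM in OGD/R libraries and 7.06 to 8.05 CPM in control libraries, and the 2 measured of 7 glial markers to 93.4 to 102 CPM in OGD/R libraries and 90.8 to 95.2 CPM in control libraries. The part of these levels in the results was not tested.

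Most hnRNP and SR genes that passed the test were higher after OGD/R. 19 of the 35 passed the test across all genes as higher, 1 (HNRNPF) passed as lower, and 15 did not pass. 31 log2 fold changes were positive and 4 negative. Since the set was picked on this comparison, nothing is read from these counts against the 10.2% and 9.48% of all genes. Among the 5722 genes whose control mean was at least the lowest control mean of a member (39.4 CPM), 20.6% were higher and 17.3% lower. The median log2 fold change was 0.12 over the members, with values between −0.15 and 0.55, and −0.0046 over all genes. Groups did not overlap in 22 members, with the OGD/R libraries above in 21 and below in 1. Over all genes the shares were 16.4% above and 16.6% below, and nothing is read from this difference either. In such bulk libraries, RNA per cell and the number of cells of a type cannot be told apart.

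Added up, the 35 genes held 10261, 10439 and 10480 CPM in the OGD/R libraries, against 9017, 9251 and 9033 CPM in the control libraries. The groups did not overlap, and the OGD/R mean was 14.2% above the control mean. The members made up 1.02% to 1.04% of all counts in OGD/R libraries and 0.917% to 0.924% in control libraries. The hnRNP sum was 14.3% higher and the SR and TRA2 sum 14.0% higher after OGD/R. HNRNPA2B1 and HNRNPA1 carried much of the rise in counts, and without them the sum was 9.24% higher.

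**Figure D1:**
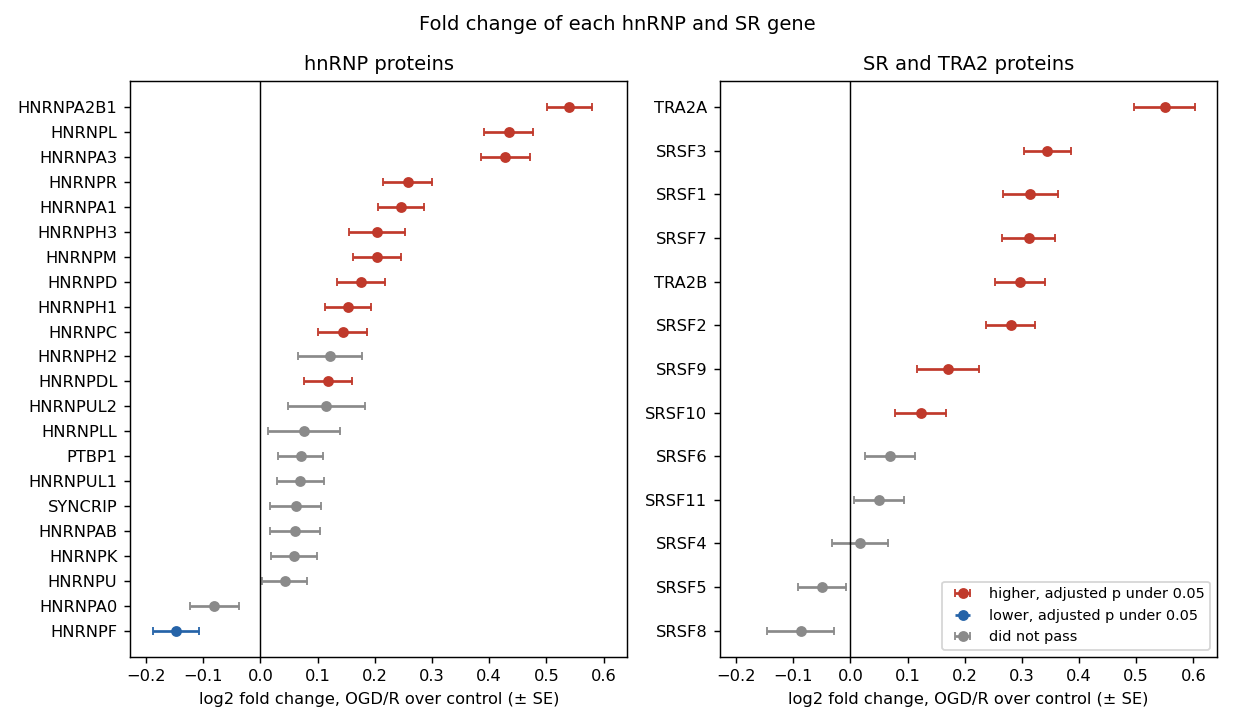
log2 fold change of each gene, OGD/R over control, with its standard error (x axis), for the hnRNP genes (left) and the SR and TRA2 genes (right). Colour gives the call across all 17104 genes. The hnRNP genes run between −0.15 (HNRNPF) and 0.54 (HNRNPA2B1), and the SR and TRA2 genes between −0.09 (SRSF8) and 0.55 (TRA2A).

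Promoters of 3 genes are shown: HNRNPA2B1 and SRSF3, which rose, and HNRNPF, which fell. Among genes with a promoter entry, HNRNPA2B1 had the highest fold change of the hnRNP genes and SRSF3 of the SR and TRA2 genes. HNRNPF had the lowest of all members. HNRNPL and HNRNPA3 (0.43 each on the log2 scale) lay above SRSF3 (0.34) and are not shown. Each is the 250 bases before the gene's start in RefSeq on GRCh38.p14, read 5′ to 3′ on the gene's strand. Capitals mark the CCAAT box, the ETS core CCGGAA and the GC box GGGCGG, each searched on both strands without regard to overlap. HNRNPA2B1 lies at chr7:26200747-26200996 on the minus strand, SRSF3 at chr6:36594112-36594361 on the plus strand and HNRNPF at chr10:43408858-43409107 on the minus strand.
HNRNPA2B1: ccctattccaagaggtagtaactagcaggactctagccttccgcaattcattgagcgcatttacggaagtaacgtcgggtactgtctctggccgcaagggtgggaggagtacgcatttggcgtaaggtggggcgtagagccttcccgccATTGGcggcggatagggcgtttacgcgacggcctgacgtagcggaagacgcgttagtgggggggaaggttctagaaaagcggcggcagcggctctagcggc
SRSF3: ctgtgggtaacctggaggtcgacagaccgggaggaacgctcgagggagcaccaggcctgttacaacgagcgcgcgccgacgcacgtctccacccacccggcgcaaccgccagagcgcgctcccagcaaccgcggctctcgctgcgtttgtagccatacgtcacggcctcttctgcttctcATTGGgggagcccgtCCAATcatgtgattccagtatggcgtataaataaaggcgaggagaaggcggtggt
HNRNPF: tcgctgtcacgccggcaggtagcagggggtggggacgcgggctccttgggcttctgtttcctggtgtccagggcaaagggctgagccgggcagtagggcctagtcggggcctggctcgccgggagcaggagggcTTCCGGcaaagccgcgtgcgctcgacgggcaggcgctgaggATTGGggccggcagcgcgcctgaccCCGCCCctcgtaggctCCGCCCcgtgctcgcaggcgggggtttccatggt
The HNRNPA2B1 window held 1 CCAAT match, the SRSF3 window held 2, and the HNRNPF window held 1 CCAAT box, 1 ETS core and 2 GC boxes.

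32 of the 35 members had a promoter entry. HNRNPA1, SRSF2 and TRA2A had none. CCAAT, the box bound by NF-Y, occurred in 16 of the 32 windows (50.0%), against 34.5% of 15843 windows of the same length. It was present in 7 of 16 members that rose and 9 of the 16 others. GGGCGG, the GC box bound by SP factors, occurred in 65.6% of member windows and 56.0% of all windows. It was present in 8 of the 16 members that rose and 13 of the 16 others. CCGGAA, the core of ETS sites, occurred in 18.8% of member windows and 19.3% of all windows, with 2 members that rose and 4 others. CACGTG, an E-box, occurred in 6 member windows (18.8%, against 7.84% of all windows), namely those of 5 members that rose (HNRNPA3, HNRNPD, HNRNPDL, HNRNPH3 and HNRNPM) and of HNRNPH2, which did not pass. TATAAA occurred in 15.6% of member windows and 9.23% of all windows, with 3 members that rose and 2 others. Member windows had a median GC content of 65.8%, against 62.4% for all windows. These matches describe letters in a window and carry no measure of binding.

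The A/B-type hnRNPs are the most abundant core of the hnRNP particle. HNRNPA2B1 (ENSG00000122566), which represses exons and also sorts and stabilises RNAs, had 1364, 1431 and 1445 CPM in the OGD/R libraries, against 983, 958 and 974 CPM in the control libraries. The lowest OGD/R library lay well above the highest control library, and the log2 fold change was 0.54 ± 0.04 (fold changes are OGD/R over control with their SE). Per length, HNRNPA2B1 was also the highest member in control libraries, at 708 ± 26.2 TPM (level per transcript length, SD, n = 3). HNRNPA1 followed at 694 ± 14.0 TPM, within the spread of HNRNPA2B1. HNRNPK at 510.3 ± 6.36 TPM, PTBP1 at 407 ± 13.9 TPM and HNRNPM at 365 ± 10.6 TPM came next, and HNRNPUL2 was the lowest at 20.1 ± 0.271 TPM. HNRNPA2B1 shares 3.97% of its exon bases with CBX3, which also passed as higher (log2 fold change 0.23 ± 0.04).

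HNRNPA1, the archetypal splicing silencer, had 1231, 1281 and 1305 CPM in the OGD/R libraries, against 1035, 1127 and 1057 CPM in the control libraries (log2 fold change 0.25 ± 0.04). Its groups did not overlap. It has many processed pseudogenes, and reads shared with them make its count uncertain. HNRNPA3, a close relative that also binds telomeric repeats, had 208, 204 and 202 CPM in OGD/R libraries and 154, 149 and 153 CPM in control libraries, a log2 fold change of 0.43 ± 0.04. HNRNPA1 and HNRNPA3 lay higher in every OGD/R library than in any control library. HNRNPA0, which binds AU-rich messages, did not pass: it had 199.8, 190.1 and 182 CPM in OGD/R libraries, against 196, 208 and 201 CPM in control libraries (−0.08 ± 0.04), with overlapping groups. HNRNPAB did not pass either (0.06 ± 0.04).

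HNRNPL, which binds CA-repeat elements and acts as activator or repressor by position, had 201, 199.7 and 197 CPM in OGD/R libraries, against 141, 153 and 149 CPM in control libraries. The log2 fold change was 0.43 ± 0.04 and the groups did not overlap. Its paralog HNRNPLL, known for regulating CD45 exons in T cells, did not pass (0.08 ± 0.06). The HNRNPL to HNRNPLL count ratio was 3.69 ± 0.216 in OGD/R libraries and 2.89 ± 0.306 in control libraries (SD, n = 3 each).

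HNRNPF was the one member that passed as lower. HNRNPF (ENSG00000169813) binds runs of G and shares this preference with HNRNPH1. It had 331, 337 and 347 CPM in the OGD/R libraries, against 367, 390.3 and 367 CPM in the control libraries (log2 fold change −0.15 ± 0.04). The highest OGD/R library lay below the lowest control library. HNRNPH1 averaged 496 ± 9.11 CPM in OGD/R libraries and 446 ± 18.5 CPM in control libraries and rose (0.15 ± 0.04). HNRNPH3, a smaller relative, averaged 106 ± 4.44 CPM in OGD/R libraries and 92.3 ± 1.59 CPM in control libraries and rose too (0.20 ± 0.05), but did not pass once transcript length and GC were corrected for (0.10). HNRNPH2 did not pass (0.12 ± 0.06). HNRNPH2 passed as higher without OGD/R replicate 1 (0.20). HNRNPH1 and HNRNPH2 are near copies, so reads between them may have been split. The HNRNPH1 to HNRNPF count ratio, which needs no scaling between libraries, was 1.47 ± 0.0247 in OGD/R libraries and 1.19 ± 0.00797 in control libraries.

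HNRNPC, which binds uridine tracts and keeps cryptic exons out of messages, had 405, 439 and 442 CPM in OGD/R libraries, against 397, 402 and 365 CPM in control libraries (0.14 ± 0.04). It passed the test, and its groups did not overlap, but its call was lost without control replicate 3 (0.10), OGD/R replicate 2 (0.13) or OGD/R replicate 3 (0.12). HNRNPD (also AUF1), a factor of AU-rich message decay, rose by 0.18 ± 0.04, and its relative HNRNPDL by 0.12 ± 0.04. HNRNPDL lost its call without control replicate 3 (0.11), OGD/R replicate 1 (0.09) or OGD/R replicate 2 (0.13), and with total counts alone (0.09). A fit with replicate number as a block also ended the HNRNPDL call. HNRNPM, a regulator of CD44 exons, averaged 405 ± 11.1 CPM in OGD/R libraries and 352 ± 18.7 CPM in control libraries (0.20 ± 0.04). HNRNPR, a relative of SYNCRIP, averaged 208 ± 6.06 CPM in OGD/R libraries and 174 ± 6.97 CPM in control libraries (0.26 ± 0.04). Both passed as higher, with no overlap between the groups.

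Several of the most abundant members did not pass. PTBP1, the polypyrimidine tract binding protein that represses neuronal exons, had 587, 598 and 589 CPM in the OGD/R libraries, against 542, 568 and 579 CPM in the control libraries (0.07 ± 0.04). Its groups did not overlap, and it did not pass. HNRNPK, a KH-domain protein that binds C-rich tracts, had 575, 598 and 586 CPM in OGD/R libraries and 556, 584 and 549 CPM in control libraries (0.06 ± 0.04), and its groups overlapped. HNRNPU, the scaffold attachment factor, had 614, 595 and 603 CPM in OGD/R libraries and 601, 569 and 589 CPM in control libraries (0.04 ± 0.04), also overlapping. SYNCRIP (0.06 ± 0.05), whose groups did not overlap either, and HNRNPUL1 (0.07 ± 0.04) and HNRNPUL2 (0.12 ± 0.07) did not pass.

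**Figure D2:**
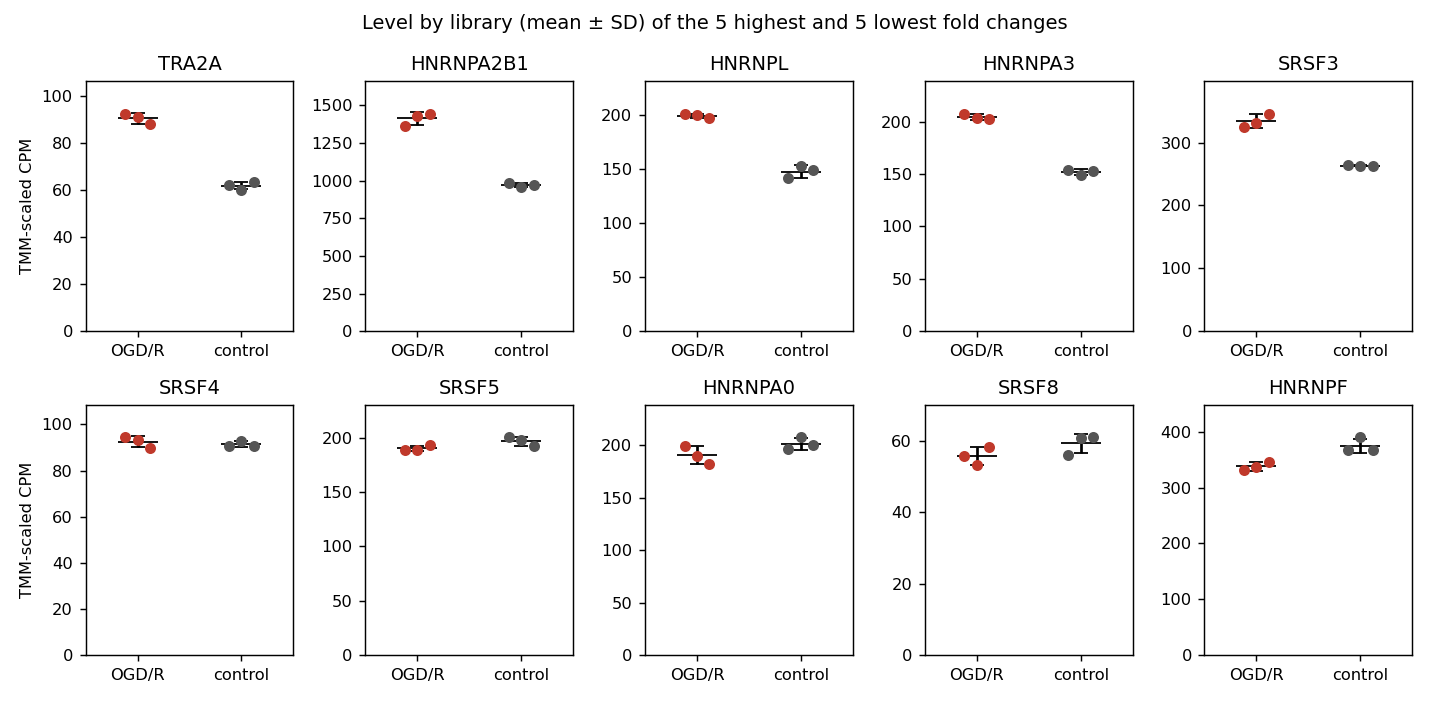
Level in TMM-scaled CPM (y axis, linear and starting at 0) of the 5 members with the highest and the 5 with the lowest fold changes. Points are libraries, OGD/R left and control right, with the mean and SD. In the upper row, TRA2A to SRSF3, the groups do not overlap. In the lower row the groups are apart only for HNRNPF.

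Among SR proteins, the TRA2 pair and SRSF1, SRSF2, SRSF3 and SRSF7 had the larger fold changes. TRA2A (ENSG00000164548), a homolog of a Drosophila sex-determination splicing factor that activates exons through GAA-rich enhancers, had 92.4, 91.0 and 87.9 CPM in the OGD/R libraries, against 62.0, 60.2 and 63.2 CPM in the control libraries. Its log2 fold change of 0.55 ± 0.05 was the highest of all members. TRA2B, its paralog, had 166, 164 and 161 CPM in OGD/R libraries and 131, 135 and 133 CPM in control libraries (0.30 ± 0.04). Neither gene's groups overlapped. The TRA2A to TRA2B count ratio was 0.553 ± 0.00559 in OGD/R libraries and 0.464 ± 0.0163 in control libraries.

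SRSF3 (ENSG00000112081), the smallest SR protein, which also guides mRNA export, had 324, 332 and 346 CPM in OGD/R libraries, against 264, 263 and 262 CPM in control libraries (0.34 ± 0.04). SRSF1, the founding SR protein, had 135, 128 and 128 CPM in OGD/R libraries and 111, 101 and 102 CPM in control libraries (0.31 ± 0.05). SRSF2, a resident of nuclear speckles, had 196, 199 and 185 CPM in OGD/R libraries and 157, 160.3 and 160.3 CPM in control libraries (0.28 ± 0.04). In all 3 genes the OGD/R libraries lay above the control libraries. SRSF7, an SR protein with a zinc knuckle, averaged 149 ± 6.83 CPM in OGD/R libraries and 120.1 ± 0.959 CPM in control libraries (0.31 ± 0.05).

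SRSF9 (0.17 ± 0.05) and SRSF10 (0.12 ± 0.04) passed as higher, but with calls that leaving out a library ended. SRSF10 is known as a repressor that is activated by dephosphorylation in stressed cells. SRSF9 lost its call without control replicate 1 (0.13), OGD/R replicate 2 (0.18) or OGD/R replicate 3 (0.14), and with total counts (0.14). SRSF10 lost it without control replicate 3 (0.10), OGD/R replicate 1 (0.12), OGD/R replicate 2 (0.15) or OGD/R replicate 3 (0.10), and with total counts (0.09). With replicate number as a block in the fit, the SRSF10 call was lost too.

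The long SR proteins with a pair of RNA recognition motifs did not pass. SRSF4 had 94.4, 93.2 and 89.9 CPM in OGD/R libraries, against 90.8, 92.9 and 90.8 CPM in control libraries (0.02 ± 0.05). SRSF5 had 189, 189 and 193 CPM in OGD/R libraries, against 201, 198 and 193 CPM in control libraries (−0.05 ± 0.04). The groups overlapped in both genes. SRSF6 (0.07 ± 0.04) and SRSF11 (0.05 ± 0.04) did not pass either. SRSF8, a copy of SRSF2 in the human genome, had 55.9, 53.1 and 58.3 CPM in OGD/R libraries and 56.1, 60.7 and 60.9 CPM in control libraries (−0.09 ± 0.06). The SRSF2 to SRSF8 count ratio was 3.47 ± 0.289 in OGD/R libraries and 2.69 ± 0.0904 in control libraries, and reads between these copies may have been split.

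Exons of some members overlap other genes, and the sources used here do not give whether strand was used in counting. The overlap covers 60.7% of exon bases in SRSF1, 46.2% in SRSF9, 44.1% in HNRNPUL2, 36.7% in SRSF2, 16.3% in HNRNPH2 and 15.6% in HNRNPU. Among the partners with a row, GATC for SRSF9 (log2 fold change −0.02), MFSD11 for SRSF2 (−0.03) and COX20 for HNRNPU did not pass. ENSG00000279069, a partner of SRSF1, did not pass either (0.0049), at 2.08 CPM in OGD/R libraries and 2.07 CPM in control libraries. The other partner of SRSF1 had no row. TGFB1, which shares 3.29% of exon bases with HNRNPUL1, passed as higher (0.13 ± 0.04). COX20 averaged 0.54 ± 0.213 CPM in OGD/R libraries and 1.08 ± 0.17 CPM in control libraries.

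Most members have annotated decay-targeted transcripts, a trait that the choice did not use. A transcript annotated for nonsense-mediated decay was listed for 27 of the 35 members (77.1%), against 42.6% of 13097 protein-coding genes. All 13 SR and TRA2 genes had one, as did 14 of 22 hnRNP genes. 17 of the 19 members that rose had one, and 10 of the 16 others did. Members also had more annotated transcripts of any type, with a median of 11 against 7 in protein-coding genes. That median was 12 in members that rose and 8 in the others. The shares are not matched for this, nor for level. Retained-intron transcripts were listed for 71.4% of members and 57.0% of protein-coding genes. A count per gene adds up productive and decay-targeted transcripts, so the rise in a gene's count says nothing of which form rose.

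Fold changes fell with transcript length across genes (Spearman rho −0.37 over 10848 genes, a description, since genes are not independent). The median length was 3555 nt in members and 3577 nt in all these genes. By family it was 3679 nt in the hnRNP genes and 2952 nt in the SR and TRA2 genes. Median GC content of the transcripts was 42.1% in members, against 49.0% in 13097 protein-coding genes. With length and GC corrected for, 20 members were higher and HNRNPF still lower (−0.19). HNRNPH3 (0.10), SRSF9 (0.04) and SRSF10 (0.06) lost their calls, and PTBP1 (0.11), HNRNPU (0.10), HNRNPUL1 (0.10) and HNRNPUL2 (0.19) gained one. The median was 0.11 over the hnRNP genes, against 0.12 without the correction, and 0.06 over the SR and TRA2 genes, against 0.17 without it. HNRNPD kept its call at 0.11. The leading members kept theirs, with TRA2A at 0.45 and HNRNPA2B1 at 0.49.

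**Figure D3:**
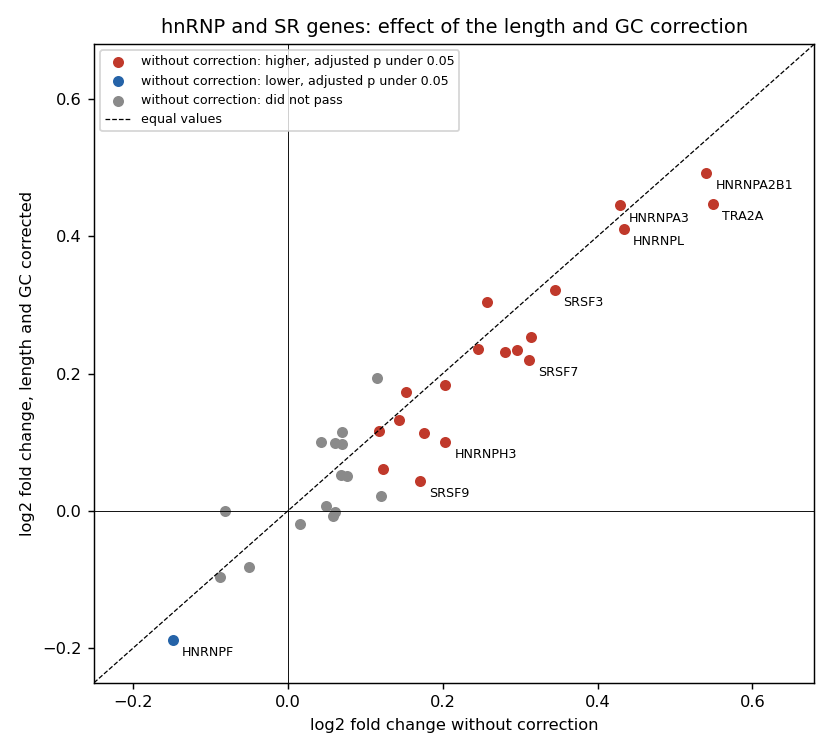
log2 fold change, OGD/R over control, of each member before (x axis) and after (y axis) correcting for length and GC of its transcript. Each point is a gene, coloured by its call without correction, and the dashed line marks equal values. TRA2A moves to 0.45 and HNRNPH3 to 0.10.

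Counts for related lists of splicing genes follow, and no test compares the lists. Over all genes 10.2% were higher and 9.48% lower. Among the 5722 genes at 39.4 CPM or more in control libraries, the shares were 20.6% and 17.3%. Of 8 kinases that phosphorylate SR proteins, 1 (12.5%) rose and 1 (12.5%) fell (median log2 fold change 0.01). CLK1 had 58.8, 60.9 and 58.2 CPM in OGD/R libraries, against 72.2, 69.9 and 66.0 CPM in control libraries, and fell by 0.23 ± 0.06 on the log2 scale (edgeR adjusted p = 0.0023). CLK2 had 57.9, 52.0 and 54.1 CPM in OGD/R libraries and 46.7, 44.3 and 51.8 CPM in control libraries, a log2 fold change of 0.20 ± 0.06 (edgeR adjusted p = 0.0195, 0.00882 to 0.131 over the alternatives). Its call was lost without control replicate 1 (0.19), control replicate 2 (0.16) or OGD/R replicate 1 (0.16), and with total counts (0.17). DYRK1A, named after its value was seen, gained a call with the length and GC correction (0.18), which made 2 higher and 1 lower.

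Of 32 core spliceosome genes, 16 (50.0%) rose and 1 (3.1%) fell (median 0.15). With a library left out, 13 to 21 were higher and 1 to 2 lower. With the length and GC correction 20 were higher and 1 lower (median 0.15): SNRPE (0.08), SNRPF (0.03) and SF3B6 (0.04) lost their calls and 7 others, SF3B3 (0.22) and SNRNP200 (0.14) among them, gained one. The smallest p-values belonged to SNRPG (0.52 ± 0.06, edgeR adjusted p = 1.17e-09), a ring protein of the small nuclear ribonucleoproteins. SNRPB, another, followed (0.38 ± 0.04, edgeR adjusted p = 1.73e-09), and then SNRPA1, a U2 component (0.53 ± 0.06, adjusted p = 5.77e-09). Under that correction SNRPG was at 0.31 and SNRPA1 at 0.35, and both still passed. SF3A2, a U2 subunit named here after its value was seen, was the one that fell (−0.23 ± 0.06).

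Of 31 other splicing regulators with a value, 8 (25.8%) rose and 2 (6.45%) fell (median 0.04). With the length and GC correction 11 were higher and 4 lower, and with total counts alone 7 were higher and 4 lower. TARDBP, which is mutated in motor neuron disease, was among those that rose (0.33 ± 0.04, edgeR adjusted p = 3.87e-08). RBM3, a cold-induced RNA-binding protein, rose as well (0.29 ± 0.04, edgeR adjusted p = 8.47e-07). SRRM2 and CIRBP, named after their values were seen, were lower. SRRM2, a nuclear speckle scaffold, had −0.22, and −0.06 with the length and GC correction, where it did not pass. CIRBP, also cold-induced, had −0.16. It did not pass without control replicate 2 (−0.07), control replicate 3 (−0.18), OGD/R replicate 1 (−0.18), OGD/R replicate 2 (−0.18) or OGD/R replicate 3 (−0.13), nor with DESeq2 or limma-voom (−0.16 in both). CIRBP passed in the other fits, among them the length and GC correction (−0.22) and total counts alone (−0.19).

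None of 10 nonsense-mediated decay factors passed in the main edgeR fit, with DESeq2 or with limma-voom (main median −0.11). In the main fit, without adjustment, 5 had p under 0.05, of which 4 were lower. Some other edgeR fits did call members, and with total counts alone 3 passed as lower. The negative median depended on the fit: with the length and GC correction it was 0.0056, and 6 of the 10 fold changes were positive. SMG5 had 154, 148 and 152 CPM in OGD/R libraries and 154, 172 and 168 CPM in control libraries (−0.12 ± 0.05, edgeR adjusted p = 0.0542, 0.00887 to 0.418 over the alternatives). It passed without control replicate 1 (−0.16), with total counts alone (−0.15) and with a minimum of 1 CPM in 3 libraries (−0.12), and stood at −0.05 with the length and GC correction.

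**Figure D4:**
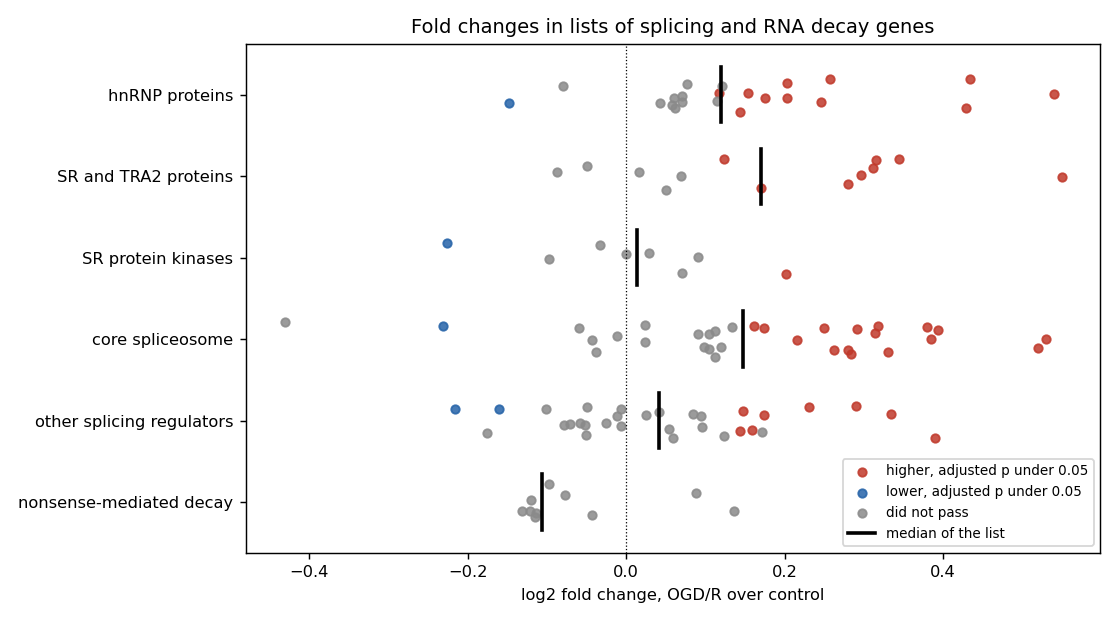
log2 fold change of each gene, OGD/R over control (x axis), in 6 lists of splicing and RNA decay genes. Points are genes coloured by call and black bars are list medians, which run between −0.11 for nonsense-mediated decay and 0.17 for SR and TRA2 proteins, without the length and GC correction.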

How the data were processed

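The authors deposited raw counts per gene for all 6 libraries. Per the submitters' processing notes, Trimmomatic, HISAT2, SAMtools, featureCounts and edgeR were used, without versions, and the build is given as GRCm38, a mouse build, although the deposited IDs are human Ensembl IDs. Strand use and the treatment of multiply mapped reads are not given in the sources used here. Libraries were prepared from total RNA, per the labels' protocols. Symbols came from annotation matched by ID (17093 of 17104 genes) and lengths, GC content and transcript types from GENCODE 29.

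Counts were scaled by TMM and tested with edgeR 4.0.16 (quasi-likelihood, robust) in R 4.3.3, OGD/R over control, after filterByExpr with a minimum count of 10, which removed 0 genes. p-values were Benjamini-Hochberg adjusted over 17104 genes with a threshold of 0.05. SE is the log2 fold change over the square root of its F. TPM are TMM-scaled CPM per transcript length, rescaled to one total. Alternatives used DESeq2 1.42.0, limma 3.58.1, other scalings and filters, a replicate block, a length and GC correction (mgcv 1.9.3) and each library left out. The test was checked on simulated data. The p-values set the difference between groups against the spread between libraries, which may be technical.

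The members and lists were chosen with earlier results of these data known. Library values are given for the 5 members with the highest and the 5 with the lowest fold change and 10 well-studied ones, fold changes for the rest. Each other list gives its 3 called members with the smallest p, or 1 if none was called; 1 gene that this rule names is not reported here.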

Additional observations from a re-analysis of the deposited data

How the results depend on the processing

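In each of 17 alternatives to the scaling, tool, filter, correction or libraries used, the 35 hnRNP and SR genes gave 15 to 20 higher calls and 1 lower call. 14 of the 19 higher calls and that of HNRNPF held in every one. HNRNPH3, SRSF9, HNRNPC, SRSF10 and HNRNPDL lost their call in at least 1, and HNRNPH2, HNRNPUL2, PTBP1, HNRNPUL1 and HNRNPU gained one. With the length and GC correction, without and with the replicate block, the sign turned for HNRNPA0 (0.00021 and 0.00047), HNRNPAB (−0.00091 and −0.0012), HNRNPK (−0.0065 and −0.0061) and SRSF4 (−0.019 and −0.019), and for SRSF4 also with total counts alone (−0.014). None of these passed in either case, and the cause was not tested. Changed SR protein kinases numbered 1 in place of 2 with total counts alone, 3 with the length and GC correction, alone or with the replicate block, and 1 to 2 with a library left out. Changed nonsense-mediated decay genes numbered 3 in place of 0 with total counts alone, 1 with a minimum of 1 CPM in 3 libraries, 1 with the length and GC correction, 1 with that correction and the replicate block, and 0 to 1 with a library left out. Over all genes, 2383 to 3367 passed with a library left out, against 3370, and the lower calls were 1079 without control replicate 3, against 1621. Same-numbered libraries deviated together little (r = 0.0058, 0.017 and 0.026), though each r lay above those of differently numbered libraries (−0.0195 to 0.0027). These r run over all genes, those with few counts included, and cannot decide whether the numbers pair the libraries. With the replicate block 3529 genes passed, and 17 members were higher and 1 lower, HNRNPDL (0.12) and SRSF10 (0.12) having lost their calls. Depth limits little here, since every member averaged 39.4 CPM or more in control libraries. The small number of libraries limits the spread estimate.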
